A study of Mus musculus with 18 samples.

Results

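Retinoic acid synthesis and breakdown was followed through 9 genes of 22298 listed in each library: Lrat, Stra6, Aldh1a1, Aldh1a2, Aldh1a3, Dhrs3, Cyp26a1, Cyp26b1 and Rarb. They were taken by symbol, after the Ensembl identifiers were matched to GENCODE M21. The 9 were picked as a pathway with earlier results of these libraries known, the lower liver Cyp26a1 among them. Differences between the genotypes are therefore given for them as description, without p-values.

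Retinol reaches tissues bound to a carrier, enters cells partly through the receptor Stra6, and is stored as esters made by Lrat, in the liver mainly in stellate cells. Cells turn retinol into retinaldehyde and back, and Dhrs3 works in the direction of retinol. The retinaldehyde dehydrogenases Aldh1a1, Aldh1a2 and Aldh1a3 make retinoic acid, and the cytochrome P450 enzymes Cyp26a1 and Cyp26b1 hydroxylate it for disposal. Retinoic acid acts through nuclear receptors such as Rarb. Cyp26a1, Dhrs3 and Rarb are among the genes known to be induced by it. That list is not complete, and it does not set Lrat, Stra6 or Cyp26b1 apart as genes that are not induced.

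Poly(A)-selected RNA was sequenced from 3 tissues of C57BL/6 mice aged 12 weeks: liver, the inguinal depot of white fat (iWAT) and the epididymal depot (eWAT). Each tissue had 3 libraries of Bckdha f/f mice (called WT here) and 3 of Bckdha f/f;RIP-Cre mice (called KO), 18 libraries in all. Both genotypes carry the floxed Bckdha allele, which encodes a subunit of the branched-chain ketoacid dehydrogenase, and the KO groups also carry Cre under the rat insulin promoter. That promoter is active in pancreatic beta cells and, in several lines, in some hypothalamic neurons, and no group with Cre alone was analysed here. The labels do not say whether replicates of a group came from separate mice or whether same-numbered libraries of different tissues share a mouse, so p-values measure the spread between these samples, which may be technical.

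Library totals were 16796147 to 28039742 expected counts. Bckdha itself was not called by edgeR between the genotypes in any of these tissues. Its WT and KO means were 218 ± 20.6 and 208 ± 30.8 CPM in liver and 184 ± 58.7 and 179 ± 73.3 in iWAT (SD, n = 3). In eWAT they were 208 ± 150 and 136 ± 32.6, a log2 fold change of -0.59 (SE 0.66). CPM is the count per 1000000 counts of the library, scaled with TMM factors among the 6 libraries of a tissue, unless it is called CPM of the library total. Hepatocyte markers (6 genes) summed to 94100 to 102000 CPM of the library total in liver and 63 to 640 in fat, and mature adipocyte markers (6 genes) to 2390 to 13400 in 11 of the 12 fat libraries. The remaining library, eWAT WT replicate 2, stood apart, with an adipocyte sum of 103 and an epididymis sum (7 genes) of 62300. Its epididymis sum compared with 1830 and 1940 in eWAT KO replicates 1 and 3 and 1.93 to 42.6 in the other eWAT libraries. In KO replicates 1 and 3 nearly all of the sum was Crisp1, at 1810 and 1910. Gpx5 stood at 15.2 and 21.7 there, below the 27.3 of WT replicate 1. In WT replicate 2, Crisp1 stood at 1080 and Gpx5 at 43900. The 3 libraries are called below those with epididymal transcripts, which in the 2 KO libraries rests mostly on Crisp1. Those 2 KO libraries also had the highest smooth muscle sums (5 genes), 4050 and 3570 against 181 to 833, and KO replicate 1 a spermatid sum (4 genes) of 801 against 0.219 to 58.5. In iWAT, B cell markers (4 genes) summed to 3.53 in WT replicate 2 and 356 to 1250 in the others, and no B cell or hepatocyte marker was at 0 there. The same WT replicate 2 had a skeletal muscle sum (4 genes) of 358, against 2.58 to 30.4 in the other iWAT libraries. Liver WT replicate 2 was low in stellate markers (7 genes, 38.2 against 93.2 to 131) and endothelial markers (7 genes, 62.9 against 209 to 259).

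In the liver, Cyp26a1 stood 4.23-fold lower in KO than in WT libraries. Cyp26b1 and Rarb had lower mean levels in KO liver, by 3.14-fold and 2.65-fold in the fit, but their groups overlapped and neither was called in the fit over all genes. Cyp26a1 stood at 130, 119 and 101 CPM in the WT libraries and at 31.6, 31.8 and 19.9 CPM in the KO libraries. Every KO library lay below every WT library, as for 6.72% of all genes tested, and the closest pair still differed by more than the range within either group. The group means were 117 ± 14.9 and 27.8 ± 6.85 CPM (SD, n = 3), a log2 fold change of -2.08 (SE 0.22). The edgeR fit called 6 of 11915 genes in this comparison at an adjusted p below 0.05 (0.0504%), 2 of them lower (0.0168%) and 4 higher in KO (0.0336%). Cyp26a1 was 1 of the 2 lower genes, a value that was known when the 9 genes were picked, so nothing is read from the call. Across 16 alternatives the fold change ran from -2.18 to -1.89. It was not called without WT replicate 1 (-2.0) or without KO replicate 1, 2 or 3 (-2.18, -2.17 and -1.89), with all 18 libraries in the fit, or on FPKM without a filter.

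Cyp26b1, the other P450 of this step, stood at 43.7, 9.44 and 48.5 CPM in WT liver and at 17.5, 8.67 and 6.3 CPM in KO liver. WT replicate 2 fell among the KO libraries, so the groups overlapped. The log2 fold change was -1.65 (SE 0.56), and the gene was not called. Rarb, the receptor, stood at 6.29, 2.23 and 5.55 CPM in WT and at 1.38, 2.29 and 1.66 CPM in KO. Again WT replicate 2 lay inside the KO range and the other WT libraries above it. The log2 fold change was -1.40 (SE 0.4), or -0.47 on log2(FPKM + 1), a scale that shrinks the change of low genes. Of 16 alternatives, Rarb was called in 1, when WT replicate 2 was left out (-1.73), and Cyp26b1 was then at -2.18 and still not called. WT replicate 2 is the liver library with low stellate and endothelial sums, and the part of these markers in the Cyp26b1 and Rarb values was not tested. Cyp26a1 in that library, at 119 CPM, lay between the other WT values, and its fold change without it was -2.05.

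**Figure D1:**
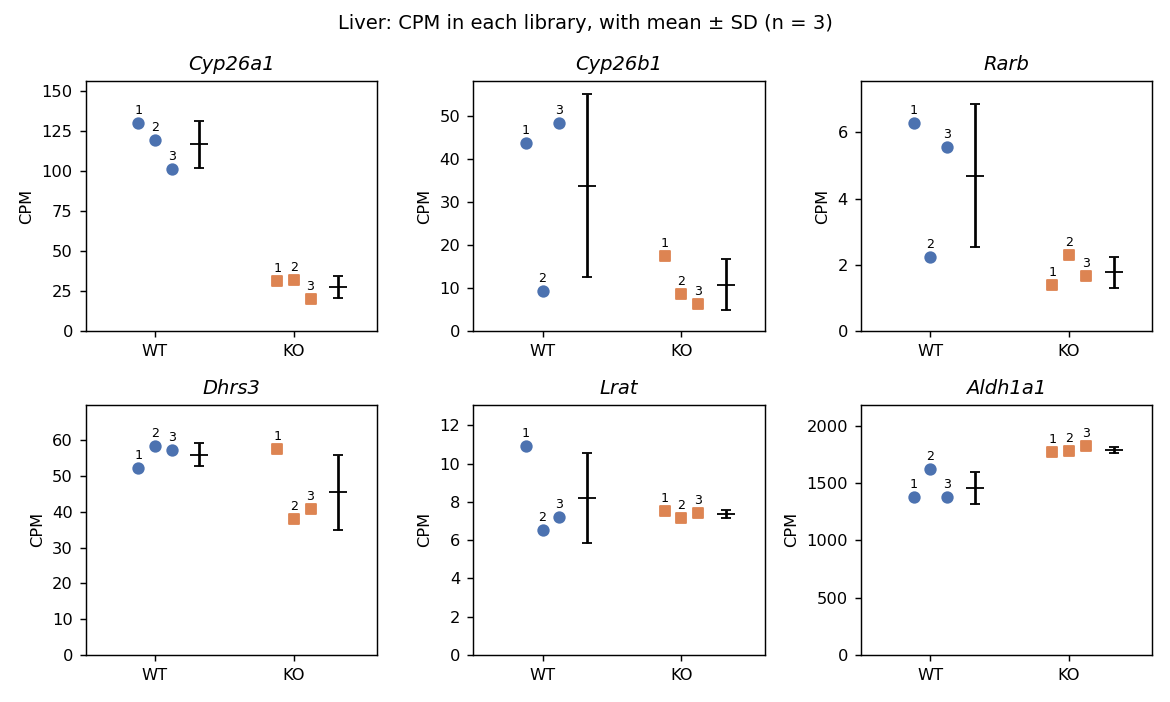
CPM (vertical axes, from 0) of 6 of the 9 genes in the liver libraries, with replicate numbers above the points. Circles are WT, squares KO, and bars give the mean ± SD of 3 libraries. Cyp26a1 separates the genotypes, at 101 to 130 CPM in WT and 19.9 to 31.8 in KO, while for Cyp26b1 and Rarb the WT library numbered 2 lies within the KO range.

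Dhrs3, which returns retinaldehyde to retinol, stood at 52.4, 58.3 and 57.4 CPM in WT liver and at 57.5, 38 and 40.8 CPM in KO liver. KO replicate 1 reached the WT values, and the log2 fold change was -0.31 (SE 0.19). Lrat, the retinol esterifying enzyme, stood at 10.9, 6.52 and 7.2 CPM in WT and at 7.53, 7.15 and 7.41 CPM in KO. The KO values lay inside the WT range, with a log2 fold change of -0.17 (SE 0.23). Aldh1a1, the retinaldehyde dehydrogenase of the liver, stood at 1380, 1620 and 1380 CPM in WT and at 1770, 1780 and 1820 CPM in KO. Every KO library lay above every WT library, which held for 6.11% of all genes tested, and the size was small (log2 fold change 0.28, SE 0.17, not called). Aldh1a2, Aldh1a3 and Stra6 did not pass the filter on low counts in liver. Of the 6 genes that passed, 5 had a negative and 1 a positive fold change.

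The starts of the 3 genes that were lowest in KO liver were read for the motif that retinoic acid receptors are known to bind. The motif is a direct repeat of a 6-base core with a spacer of 5 bases (DR5), searched on both strands. The usual core, AGGTCA, was searched together with 3 variants of it in any combination. The first variant reads AGTTCA, the next reads GGGTCA and the last reads GGTTCA. RefSeq promoter sequences of GRCm38.p6 were found for 8 of the 9 genes, with 14 starts. The 250 bases before the start are given here for the 2 genes that held a match, 5′ to 3′ on the strand of the gene, with the DR5 match in capitals.
Cyp26a1: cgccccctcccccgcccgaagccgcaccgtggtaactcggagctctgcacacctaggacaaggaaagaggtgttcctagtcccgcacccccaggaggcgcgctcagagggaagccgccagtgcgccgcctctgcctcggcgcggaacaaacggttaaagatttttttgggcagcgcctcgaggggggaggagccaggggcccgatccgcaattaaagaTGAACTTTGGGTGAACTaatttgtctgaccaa
Rarb: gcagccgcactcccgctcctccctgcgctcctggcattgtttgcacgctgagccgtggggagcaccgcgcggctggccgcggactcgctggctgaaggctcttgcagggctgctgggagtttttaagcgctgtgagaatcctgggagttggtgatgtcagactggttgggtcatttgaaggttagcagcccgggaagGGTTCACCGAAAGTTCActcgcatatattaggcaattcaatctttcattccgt
The Cyp26a1 stretch is chr19:37697558-37697807 on the plus strand, and ends just inside the gene as GENCODE annotates it (37697798 to 37701536). The Rarb stretch, chr14:16575477-16575726 on the minus strand, belongs to a RefSeq start inside the annotated gene, which spans 16430839 to 16819156.

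Cyp26a1 and Rarb were the 2 of the 8 genes with a DR5 match, and Cyp26b1 had none in its window. In Cyp26a1 it lay at bases -32 to -16 from the start and reads on the opposite strand, where its sequence is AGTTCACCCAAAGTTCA. In Rarb it lay at -53 to -37 on the strand of the gene. Counted from the 5′ end of the repeat, with Rarb as reference, the repeats share 15 of 17 bases and differ by G1A and G9C. A DR5 was found in 32 of 32851 promoters of the same 300 bases (0.0974%), and a single core in 43.7%. No member held a repeat with a spacer of 1 or 2 bases, found in 0.222% and 0.268% of promoters. Of the 29 other genes with a DR5, 3 were tested in liver and none was called: Ppbp, Gm4631 and Blvrb. A match describes these letters and does not show that a receptor was bound there.

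Other genes whose levels followed Cyp26a1 most closely over the 6 liver libraries were, by Pearson's r of log2 CPM among 10001 genes, Rcc1 (0.995), Os9 (0.991), Xbp1 (0.988), Sgce (0.986) and Zpr1 (0.985). Ccn2 (-0.994), Hdac8 (-0.990) and Rhob (-0.987) ran most opposite. These values are descriptions, since the 6 libraries form 2 genotype groups and any gene that separates them scores high. Xbp1, a transcription factor of the unfolded protein response, averaged 308 ± 8.57 CPM in WT liver against 221 ± 7.35 in KO liver (SD, n = 3). Ccn2, a matricellular protein, averaged 3.31 ± 0.255 CPM in WT and 10.2 ± 1.76 in KO, with an edgeR adjusted p of 0.0623. None of these 8 genes passed the threshold.

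In fat, the KO and WT values of the 9 genes were less far apart or more scattered, and Cyp26b1 was the only gene whose groups were free of overlap in both depots on the CPM scale. In eWAT it stood at 31.1, 30.4 and 27.5 CPM in WT and at 17.2, 13.1 and 12.5 CPM in KO. In iWAT it stood at 30.5, 27.6 and 36.3 CPM in WT and at 15.1, 23.1 and 18.6 CPM in KO. The log2 fold changes were -1.03 (SE 0.23) in eWAT and -0.73 (SE 0.22) in iWAT. Every KO library below every WT library is what 7.87% of all genes tested showed in eWAT and 5.04% in iWAT. None of the 9 had every KO library above every WT library on this scale, as 6.41% and 4.34% of all genes did. No gene at all was called by edgeR in either depot. At an unadjusted p below 0.05 there were 843 genes in eWAT and 593 in iWAT. DESeq2 called 126 genes in eWAT, Cyp26b1 among them, and 67 in iWAT, without it.

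Sums of some of the 13 marker lists also differed between the genotypes, in liver as well as in fat. In liver the fibroblast and adipose progenitor sums were 114 to 155 CPM of the library total in WT and 156 to 241 in KO. The B cell sums there were 2.72 to 2.99 in WT and 1.62 to 2.63 in KO. Skeletal muscle sums in eWAT were 2.74 to 14.3 in WT and 21.6 to 56.4 in KO. In iWAT the fibroblast and adipose progenitor markers (6 genes) summed to 1890 to 4050 CPM of the library total in WT and 1130 to 1500 in KO, and the macrophage markers (6 genes) to 712 to 730 and 362 to 579. In eWAT the macrophage markers ran the other way, at 99.6 to 293 in WT and 433 to 601 in KO, as did the endothelial markers (7 genes), at 128 to 1070 and 1230 to 1380. The part of these cells in the Cyp26b1 values was not tested.

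The Cyp26b1 difference in fat depended in size on the scaling. In deposited FPKM the genotypes overlapped in both depots, at 6.08 ± 1.17 and 3.79 ± 1.24 in eWAT and 6.95 ± 1.25 and 4.58 ± 1.31 in iWAT (WT and KO, SD, n = 3). With library totals in place of TMM factors the median of all genes moved from -0.02 to 0.31 in eWAT and from 0.01 to 0.12 in iWAT, and the Cyp26b1 fold changes became -0.68 and -0.61. Without the 3 eWAT libraries with epididymal transcripts its fold change was -1.15, a value that rests on 1 KO library, replicate 2, which the fit assumes to vary like the others. On average Cyp26b1 stood lower in KO than in WT libraries in all 3 tissues.

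**Figure D2:**
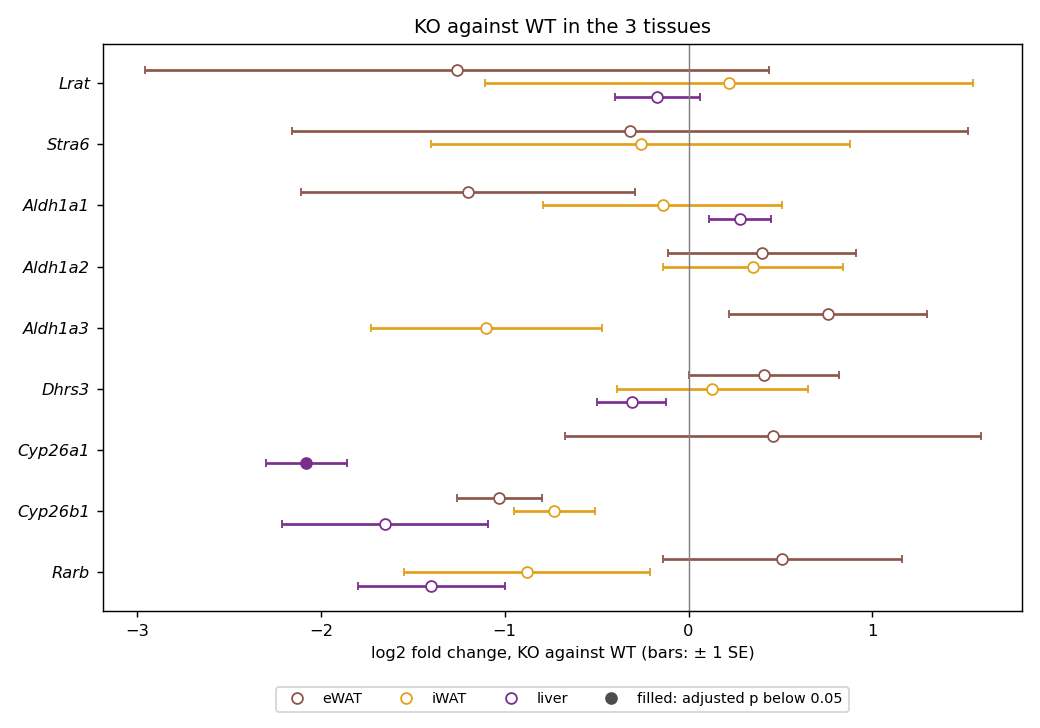
Log2 fold change of KO against WT (horizontal axis) for each gene in eWAT, iWAT and liver, with bars of 1 SE from the edgeR fit of 6 libraries. The filled point, Cyp26a1 in liver at -2.08, is the 1 value called, and gaps are genes that did not pass the filter on low counts.

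The retinaldehyde dehydrogenases of fat varied more among libraries of a genotype than between genotypes. Aldh1a1 in eWAT stood at 246, 1220 and 130 CPM in WT and at 282, 132 and 278 CPM in KO. The highest value was in WT replicate 2, the library with the epididymis sum of 62300. The log2 fold change was -1.20 (SE 0.91), and it turned to 0.38 without that library. Aldh1a2 in eWAT stood at 11.9, 18.9 and 4.99 CPM in WT and at 18.2, 13.2 and 15.3 CPM in KO, and the groups overlapped (log2 fold change 0.40, SE 0.51). Mesothelial markers (6 genes), of a cell layer known to express Aldh1a2, summed to 213, 221 and 20.4 CPM of the library total in WT and 239, 34.1 and 423 in KO eWAT. Aldh1a2 was highest in WT replicate 2 with TMM factors. In CPM of the library total (24.1 against 19.1) and FPKM (10.66 against 8.44) it was highest in KO replicate 1. In WT replicate 2, 3 of the markers, Upk3b, Msln and Wt1, were at 0.893, 1.96 and 0.238. Most of its sum of 221 thus came from the other markers of the list. The same 3 were at 25.2, 11.4 and 21.8 in KO replicate 1. They were at 5.65, 1.88 and 4.75 in WT replicate 3, which had the lowest Aldh1a2 value. In WT replicate 1 they were at 84.5, 26.3 and 15.4, and in KO replicate 2 at 9.47, 2.74 and 9.25. KO replicate 3 had the highest Upk3b and Msln, at 123 and 42.2, with Wt1 at 17.6, but not the highest Aldh1a2. The part of mesothelial cells was not tested.

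Aldh1a3 had fold changes of opposite sign in the depots. In eWAT it stood at 38.2, 11 and 12.3 CPM in WT and at 41.7, 26.9 and 33.3 CPM in KO (log2 fold change 0.76, SE 0.54). In iWAT it stood at 8.81, 47.6 and 20.9 CPM in WT and at 15.6, 7.36 and 13.1 CPM in KO (-1.10, SE 0.63). The groups overlapped in both, and the difference of the changes, -1.92 (SE 0.89), was not called.

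In iWAT, 2 libraries, WT replicate 2 and KO replicate 1, stood together for several of the genes, across the genotypes. Dhrs3 stood at 39.6, 114 and 70.7 CPM in WT and at 135, 50.8 and 58.5 CPM in KO. Aldh1a1 stood at 25.4, 127 and 64.5 CPM in WT and at 106, 34 and 56.8 CPM in KO. For both genes the 2 highest libraries were WT replicate 2 and KO replicate 1. Stra6, the retinol receptor, ran the other way, at 7.2, 0.412 and 2.46 CPM in WT and 0.521, 2.45 and 5.47 CPM in KO, and so did Lrat, at 1.83, 0 and 0.718 CPM in WT and 0.223, 1.52 and 1.22 CPM in KO. For both genes the 2 lowest libraries were the same pair.

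The marker sums of iWAT moved with that pattern. The adipocyte sums were 2390, 6930 and 5450 CPM of the library total in WT and 11300, 5140 and 5770 in KO, highest in KO replicate 1 and WT replicate 2. The B cell sums were 1250, 3.53 and 489 in WT and 356, 1230 and 1080 in KO, lowest in the same pair. The part of adipocyte and lymphoid content in the values of these 4 genes was not tested. In bulk tissue, fewer cells of a type and less RNA per cell cannot be told apart. Their KO against WT fold changes in iWAT were 0.13 for Dhrs3 (SE 0.52), -0.14 for Aldh1a1 (SE 0.65), -0.26 for Stra6 (SE 1.14) and 0.22 for Lrat (SE 1.33), all smaller than their SE.

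**Figure D3:**
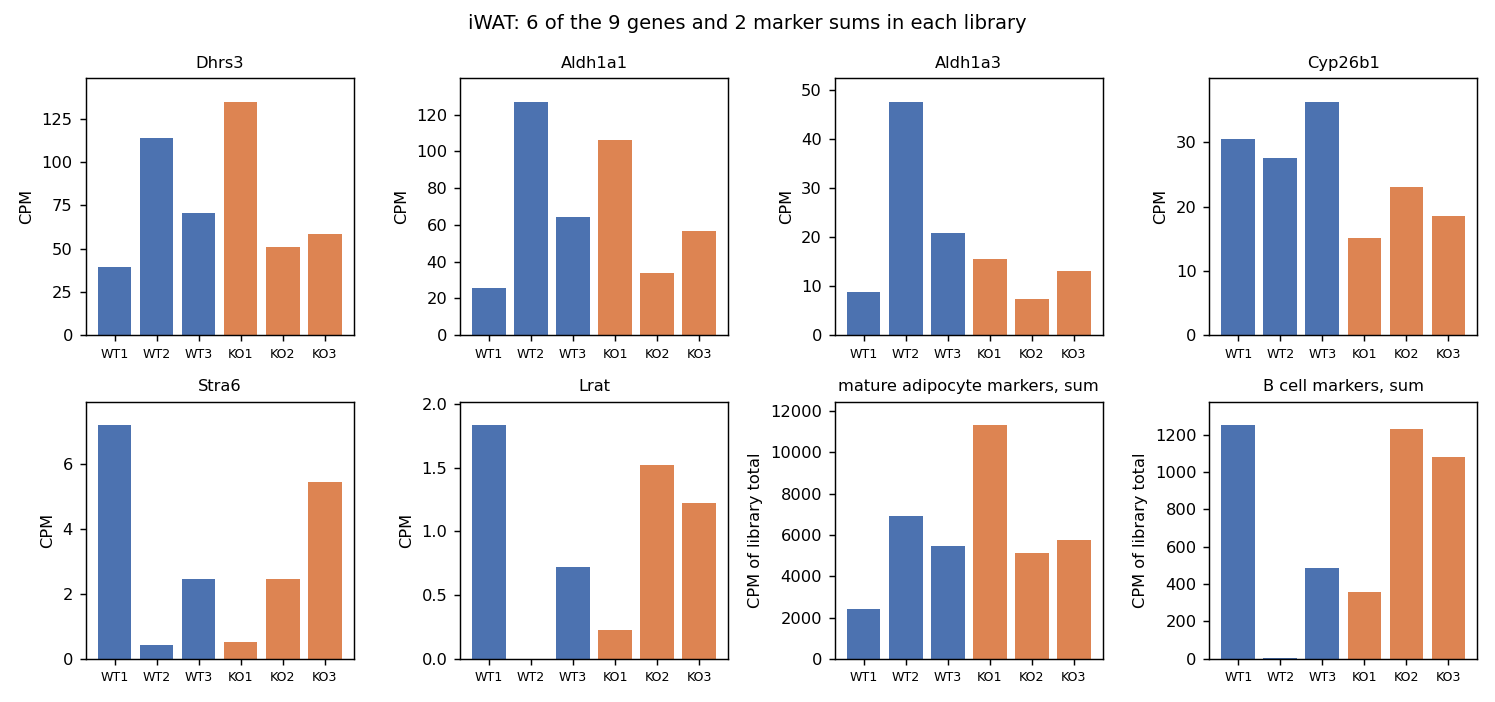
CPM of 6 of the 9 genes and summed CPM of the library total for adipocyte and B cell markers (vertical axes, from 0) in the 6 iWAT libraries, WT in blue and KO in orange. Dhrs3 and Aldh1a1 are highest, and Stra6, Lrat and the B cell sum lowest, in WT2 and KO1.

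In eWAT, Stra6 was highest in the 3 libraries with epididymal transcripts, and Lrat in 2 of them. Stra6 stood at 1.41, 5.71 and 0 CPM in WT and at 3.46, 0.054 and 2.1 CPM in KO. The epididymis sums in the same order were 42.6, 62300 and 1.93 in WT and 1830, 21.2 and 1940 in KO, so the 3 libraries with the most Stra6 were those with the highest sums. The sums of KO replicates 1 and 3 were nearly all Crisp1. Lrat stood at 0.888, 4.41 and 0 CPM in WT and at 1.64, 0.27 and 0.215 CPM in KO, highest in WT replicate 2 and then KO replicate 1, while KO replicate 3, with a sum of 1940, lay below WT replicate 1 and KO replicate 2. Whether these transcripts came with epididymal tissue was not tested. Where a gene was at 0, a count of 0 allows up to 3 counts, which is 0.128 CPM of the library total in eWAT WT replicate 3 and 0.109 in iWAT WT replicate 2, for counting error only.

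Dhrs3 and Rarb in eWAT also overlapped between the genotypes on the CPM scale. Dhrs3 stood at 77.7, 37.9 and 115 CPM in WT and at 88, 117 and 97.3 CPM in KO (log2 fold change 0.41, SE 0.41). Rarb stood at 1.67, 0.942 and 0.402 CPM in WT and at 1.48, 1.4 and 1.35 CPM in KO (0.51, SE 0.65). In FPKM every KO library lay above every WT library for both, at 39.8 ± 16.7 and 67.8 ± 5.13 for Dhrs3 and 0.503 ± 0.28 and 1.11 ± 0.231 for Rarb (WT and KO, SD, n = 3). That scale moved eWAT genes in general. The median fold change of all genes was 0.28 on log2(FPKM + 1), against -0.02 with TMM factors. Rdh5, Rarg, Rxrb and Tgm2, of other retinoid lists, likewise overlapped in CPM but not in FPKM. The share of all genes that did so was not computed. In iWAT, Rarb stood at 0.991, 3.09 and 2.46 CPM in WT and at 1.86, 1.23 and 0.424 CPM in KO, and Aldh1a2 at 1.04, 2.02 and 3.54 CPM in WT and at 2.72, 3.24 and 2.44 CPM in KO. Both overlapped, with log2 fold changes of -0.88 (SE 0.67) for Rarb and 0.35 (SE 0.49) for Aldh1a2.

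Whether the genotype changed a gene differently in liver and in fat was fitted as the difference of the fold changes, with no gene called in any of the 3 pairs of tissues by edgeR (0%). At an unadjusted p below 0.05 there were 705 genes for liver against iWAT, 794 for liver against eWAT and 739 for iWAT against eWAT, and DESeq2 called 35, 39 and 31. For Cyp26a1 the difference was -2.96 (SE 0.67) between liver and iWAT, where the gene did not pass the filter on low counts, and -2.53 (SE 0.97) between liver and eWAT. DESeq2 called Cyp26a1 for liver against iWAT and not for liver against eWAT. Its liver values were known when the 9 genes were picked, so nothing is read from that call. For Rarb the differences were -0.52 (SE 0.8) and -1.90 (SE 0.76). For Cyp26b1 they were -0.93 (SE 0.75) and -0.59 (SE 0.76), so its lower values in KO were not shown to differ in size between liver and fat.

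By median FPKM, a length-scaled unit in which genes can be compared, the order in liver was Aldh1a1 (775), Cyp26a1 (38), Dhrs3 (32.6), Cyp26b1 (3.08), Lrat (1.42), Rarb (0.92), Aldh1a3 (0.125), Aldh1a2 (0.06) and Stra6 (0). At the steps from Aldh1a1 to Cyp26a1, Dhrs3 to Cyp26b1, Rarb to Aldh1a3 and Aldh1a2 to Stra6 the ranges of the 6 libraries did not overlap. The other neighbours overlapped. The place of Cyp26a1 differed between the genotypes. It stood at 63.1 ± 9.62 FPKM in WT liver against 33.8 ± 2.54 for Dhrs3, above it in each of the 3 libraries. In KO liver it stood at 16 ± 3.64 against 29.4 ± 7.08 (SD, n = 3), below it in each. In eWAT the order was Aldh1a1 (136), Dhrs3 (59.1), Aldh1a3 (9.7), Aldh1a2 (6.63), Cyp26b1 (4.99), Rarb (0.805), Stra6 (0.65), Cyp26a1 (0.23) and Lrat (0.1). Only the steps from Dhrs3 to Aldh1a3 and from Cyp26b1 to Rarb were free of overlap. In iWAT the order was Dhrs3 (37.6), Aldh1a1 (32.7), Cyp26b1 (5.77), Aldh1a3 (4.49), Aldh1a2 (1.14), Stra6 (0.92), Rarb (0.655), Lrat (0.185) and Cyp26a1 (0.12). There the free steps were those from Aldh1a1 to Cyp26b1, Aldh1a3 to Aldh1a2 and Rarb to Lrat.

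**Figure D4:**
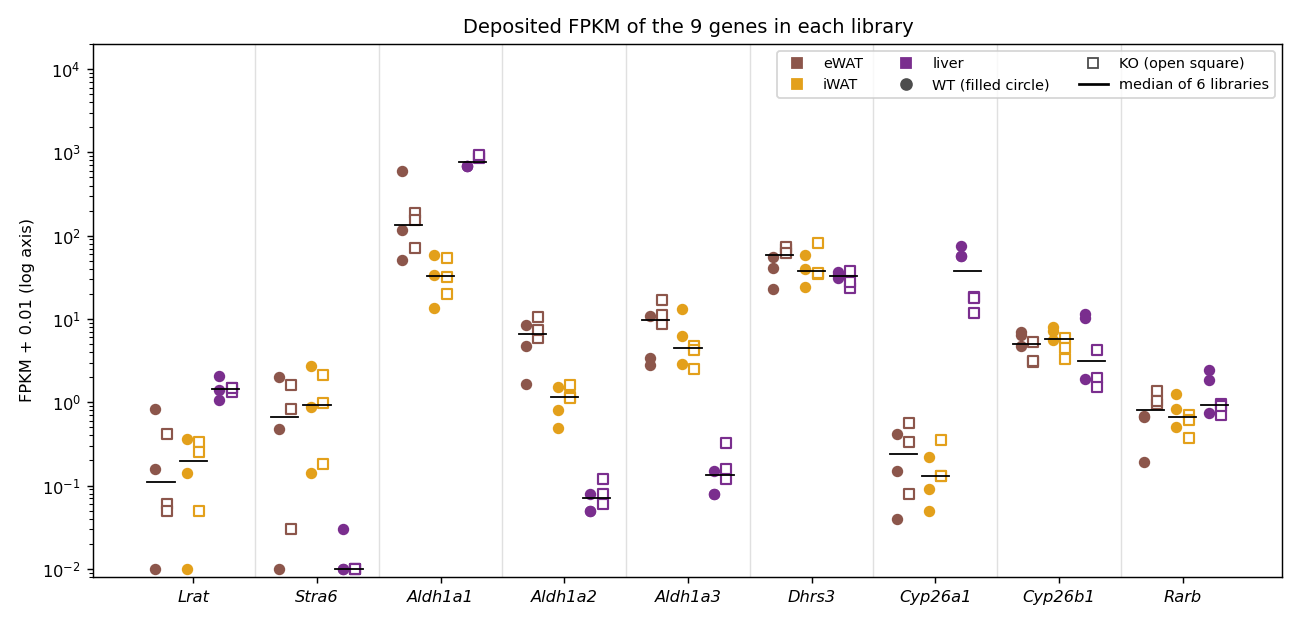
Deposited FPKM plus 0.01 (vertical log axis) of the 9 genes in each of the 18 libraries, coloured by tissue, with WT as filled circles, KO as open squares and a bar at the median of 6 libraries. Cyp26a1, Lrat and Aldh1a1 sit highest in liver, at medians of 38, 1.42 and 775, and Aldh1a2, Aldh1a3 and Stra6 lowest there.

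Between tissues, averaged over the genotypes, 77.5% of all genes were called in liver against iWAT and 70.2% against eWAT, so a call alone says little here. A gene can enter such a fit without passing the filter in both tissues. Of the 9 genes, 5 passed it in both liver and iWAT and 6 in both liver and eWAT. Aldh1a2, Aldh1a3 and Stra6 entered through fat, and Cyp26a1 entered the iWAT fit through liver. The filter thus favoured a difference for these, and they are described without p-values. The tissues took unlike TMM factors, so the size depends on the scaling: with library totals the median of all genes moved from -0.34 to -1.71 against iWAT and from -0.29 to -1.72 against eWAT. The genes called higher and lower in liver then went from 4653 and 6718 to 1623 and 11512 against iWAT, and from 4444 and 6081 to 1272 and 11536 against eWAT. Cyp26a1 was higher in liver by 9.08 on the log2 scale against iWAT (SE 0.35) and by 8.45 against eWAT (SE 0.59, edgeR adjusted p = 8.94e-07). Its FPKM ran from 11.8 to 74.2 in liver, 0.03 to 0.55 in eWAT and 0.04 to 0.34 in iWAT, with no overlap. Behind the fat values were 1 to 18 reads in each library, 53 in all in eWAT and 37 in iWAT. Reads of Cyp26a1 per 1000 reads of Alb, the hepatocyte albumin gene, were 0.269 to 1.84 in liver and 0.368 to 12 in fat, where Alb stood at 47.8 to 505 CPM of the library total. Whether the few fat reads came from fat or from liver RNA was not tested.

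Aldh1a1 was higher in liver by 5.95 against iWAT (SE 0.43, adjusted p = 2.31e-07) and by 3.62 against eWAT (SE 0.54, adjusted p = 0.00019). DESeq2 gave no adjusted p for the latter. Its FPKM ran from 682 to 942 in liver, 51.2 to 604 in eWAT and 13.4 to 59.4 in iWAT. Lrat was higher in liver by 4.46 (SE 0.69, adjusted p = 0.00011) and 4.15 (SE 0.88, adjusted p = 0.00181) against iWAT and eWAT. Rarb was higher in liver by 2.23 (SE 0.41, adjusted p = 0.000417) and 2.70 (SE 0.4, adjusted p = 0.000168), but by only 0.89 against iWAT with library totals, where it was not called, and its FPKM overlapped between the tissues.

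Aldh1a2, Aldh1a3 and Stra6 stood lower in liver than in either fat depot. Aldh1a2 was lower by a log2 fold change of -2.75 against iWAT (SE 0.42) and -5.16 against eWAT (SE 0.43), with 18 reads in all liver libraries together. Aldh1a3 was lower by -4.11 (SE 0.49) and -4.65 (SE 0.46), with 52 reads in liver. Stra6 had 1 read in the 6 liver libraries, in WT replicate 1, and a count of 0 allows 0.116 to 0.161 CPM of the library total there. In fat it had no read in 1 of the 12 libraries, eWAT WT replicate 3.

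Cyp26b1 and Dhrs3 had no stable direction between liver and fat. With TMM factors Cyp26b1 was higher in liver by 1.03 (SE 0.38, adjusted p = 0.0256) and 1.33 (SE 0.38, adjusted p = 0.0107) against iWAT and eWAT, while library totals gave -0.33 and -0.10 and log2(FPKM + 1) -0.39 and -0.20. Dhrs3 was higher in liver by 0.77 (SE 0.28, adjusted p = 0.0256) and 0.63 (SE 0.24, adjusted p = 0.0363) with TMM factors, while library totals gave -0.59 and -0.77 and log2(FPKM + 1) -0.43 and -0.67.

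Between the fat depots, 2 of the 9 genes were called, both lower in iWAT, where 8.3% of all genes were called lower, 9.12% higher and 17.4% in either direction. Aldh1a2 had a log2 fold change of -2.51 (SE 0.39, adjusted p = 0.0128), with FPKM of 0.48 to 1.6 in iWAT and 1.64 to 10.7 in eWAT. The mesothelial sums were 2.62 to 14.4 in iWAT and 20.4 to 423 in eWAT, and their part was not tested. Aldh1a1 had a log2 fold change of -2.42 (SE 0.63, adjusted p = 0.0309), with FPKM of 13.4 to 59.4 in iWAT and 51.2 to 604 in eWAT. Without the 3 eWAT libraries with epididymal transcripts, which leaves KO replicate 2 as the 1 KO library of eWAT, assumed to vary like the others, neither was called, at -2.12 for Aldh1a2 and -1.23 for Aldh1a1. Calls over all genes then fell from 2692 to 23. In WT libraries alone neither was called (-2.44 and -2.91), and Aldh1a1 was not called with log2(FPKM + 1) (-2.13) or in KO libraries alone (-1.89). Aldh1a2 also lost its call without eWAT KO replicate 3, and Aldh1a1 without eWAT KO replicate 1 or 3, iWAT WT replicate 1 or 3 or iWAT KO replicate 2 or 3. The other 7 genes had adjusted p-values of 0.34 to 0.852, though Aldh1a3 (-0.63) was called in KO libraries alone (-1.57). Cyp26a1, among the 7, did not pass the filter in iWAT and entered through eWAT.

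The rest of the retinoid pathway was read from 6 lists with 67 other genes. Between the genotypes, edgeR called none of them in any tissue, of 50 tested in liver, 53 in eWAT and 51 in iWAT. In liver 19 had a positive and 31 a negative fold change, with a median of -0.07 against 0.00 over all genes. In the list of retinol and retinaldehyde dehydrogenases and reductases, 15 of 18 genes were tested in liver, 6 with positive and 9 with negative fold changes. Rdh11, a retinaldehyde reductase, stood at 64.2, 67.4 and 73 CPM in WT and 53.6, 39.7 and 41.3 CPM in KO, every KO library below every WT library, but with an edgeR adjusted p of 0.538. Aox1, an aldehyde oxidase, stood at 55.9, 43.4 and 70.8 CPM in WT and 97.4, 80.6 and 86.1 CPM in KO, every KO library above every WT library, with an edgeR adjusted p of 0.603. In FPKM the groups of Rdh11 overlapped. Of all genes tested in liver, 6.72% had every KO library below every WT library and 6.11% every one above. Rdh16f2 and Adh1 of these lists also lay wholly below, and Rdh9, Dhrs4, Adh4 and Ncoa2 wholly above. Rdh11 and Aox1 were singled out after their values were seen. Of the genes known to be induced by retinoic acid, 9 of 16 were tested in liver, 2 with positive and 7 with negative fold changes, with a median of -0.27.

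Against iWAT, 34 of 58 tested were called higher in liver and 17 lower, or 27 and 25 with library totals, where 31.7% of all genes were called higher and 45.8% lower. Against eWAT, 32 of 59 were called higher and 16 lower, or 23 and 24 with library totals, where 29.7% and 40.6% of all genes were. Of these tested genes 43 and 45 passed the filter in both tissues, and the others entered through 1 of them. The dehydrogenases and reductases had 13 called higher and 1 lower of 16 against iWAT, led by Adh4, Rdh16f2 and Rdh7. Adh4 (log2 fold change 11.04, SE 0.2), Rdh16f2 and Rdh16 did not pass the filter in iWAT. They entered through liver, so the filter favoured a difference. Rdh7 passed it in both tissues, with a log2 fold change of 10.34 (SE 0.28). In retinol transport, the plasma carrier partner Ttr was higher in liver by 10.34 against iWAT (SE 0.39, edgeR adjusted p = 1.16e-09), and Stra6l, the second receptor for the retinol carrier, by 7.41 (SE 0.5, edgeR adjusted p = 1.45e-07), the reverse of Stra6. Rbp7, a retinol-binding protein of fat, was lower in liver than in eWAT by -8.37 (SE 1.14). It did not pass the filter in liver and entered through fat, so the filter favoured a difference. Among enzymes of retinaldehyde oxidation and carotenoid cleavage 7 of 8 tested were called higher in liver against each depot. Bco1 and Cyp2c39 among them did not pass the filter in fat and entered through liver. Aldh8a1, which passed in all 3 tissues, stood at 10.30 against iWAT (SE 0.39, edgeR adjusted p = 1.02e-09). Fabp5, which carries retinoic acid to the nucleus among other ligands, was lower in liver than in iWAT by -2.71 (SE 0.24, edgeR adjusted p = 1.29e-06). Of the receptors and co-regulators, Rxra was higher by 2.09 (SE 0.2, edgeR adjusted p = 2.07e-06) and the corepressors Nrip1 and Ncor1 lower by -1.99 and -1.12 against iWAT. These named genes kept their sign with library totals and with FPKM.

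Between the depots, 1 of 57 tested genes of the lists was called higher in iWAT and 6 lower, where 9.12% of all genes were called higher and 8.3% lower. Of the 57 genes, 50 passed the filter in both depots, and the others entered through 1 of them. The higher gene was Ucp1, the uncoupling protein of thermogenic fat and a known retinoic acid target, with a log2 fold change of 7.63 (SE 0.97). It did not pass the filter in eWAT and entered through iWAT, so the filter favoured a difference. Its values were 102, 10.5 and 29.2 CPM in WT and 46.6, 22.1 and 13.8 CPM in KO iWAT, against at most 2.25 CPM in eWAT. Among the genes lower in iWAT were Lrp2, the endocytic receptor megalin (-6.87), the retinoic acid binding protein Crabp1 (-6.80), the retinol dehydrogenase Rdh16 (-4.31) and Nrip1 (-0.88). Crabp1 and Rdh16 did not pass the filter in iWAT and entered through eWAT, so the filter favoured a difference for these too. Without the 3 eWAT libraries with epididymal transcripts neither Ucp1 (8.63) nor Lrp2 (-4.04), Crabp1 (-3.99), Rdh16 (-2.79) or Nrip1 (-0.61) was called, with the 1 KO library of eWAT again assumed to vary like the others. In eWAT, Lrp2 stood at 86.2, 79.8 and 1.03 CPM in WT and 188, 2.54 and 87.7 CPM in KO. It was low in WT replicate 3 and KO replicate 2, the libraries with the lowest epididymis sums (1.93 and 21.2) and mesothelial sums (20.4 and 34.1). WT replicate 1, with an epididymis sum of 42.6, stood above WT replicate 2, with 62300. The part of these tissues in the Lrp2 values was not tested.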

How the data were processed

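The authors deposited expected counts and FPKM of 22298 genes for each of the 18 libraries. Per the submitters' processing notes, which give no roles, the tools included RSEM, HISAT2, StringTie 1.3.1, Bowtie2 2.2.8 and fastp 0.18.0, besides edgeR and DESeq2, on the build mm10. Whether counting used strand is not stated in the labels. The deposited expected counts (8.33% not whole within 0.01) were rounded. The deposited FPKM values, scaled by the authors for gene length and depth, served to compare genes and as an alternative on log2(FPKM + 1). Of the identifiers 22255 matched a GENCODE M21 symbol.

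Genes passed edgeR's filterByExpr (minimum count 10, total 15), were scaled with TMM and tested with edgeR 4.0.16's robust quasi-likelihood fit (R 4.3.3), adjusted by Benjamini-Hochberg over all genes tested, threshold 0.05. KO was compared with WT in the 6 libraries of a tissue. Tissues, and differences of genotype effects, were compared in the 12 libraries of 2 tissues with 4 group means. The SE is the fold change over the root of F. Alternatives were other scalings, DESeq2 1.42.0, limma 3.58.1 on FPKM, no filter, all 18 libraries, a replicate block and left-out libraries. The code was tested on simulated data. Within groups, libraries differed beyond counting noise.

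Named genes were Bckdha, the 9 members, from each other list up to 3 called genes per comparison in order of p, and the 5 genes most and 3 least correlated with Cyp26a1 in liver at a mean log2 CPM of at least 1. Some genes that this rule names are not reported here. For cell types, 13 marker lists were summed. The members and lists were chosen with earlier results of these data known.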

Additional observations from a re-analysis of the deposited data

How the results depend on the processing

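Of the counts of genes called by edgeR, the 6 for KO against WT in liver became 11 without a filter, 65 with DESeq2, 39 with a replicate block, 0 with log2(FPKM + 1) and no filter, 0 with all 18 libraries, and 0 to 25 leaving out single libraries (0 without KO replicate 1, 2 without WT replicate 1 or KO replicate 2, 11 without WT replicate 3, 25 without WT replicate 2). For eWAT, 0 became 126 with DESeq2, 4 with all 18 libraries and 25 without the 3 libraries with epididymal transcripts (which leaves 1 KO library of eWAT, assumed to vary like the others, here and below), and for iWAT 67 with DESeq2. For iWAT against eWAT, 2692 became 4454 with DESeq2, 885 with log2(FPKM + 1), 1057 with the replicate block, 0 in WT and 1010 in KO libraries alone, 23 without the 3 libraries, and 16 to 3117 leaving out single libraries (16 without eWAT KO replicate 3). For liver against eWAT, 10525 became 5398 in WT libraries alone. The differences of genotype effects, with 0 called, became 31 with DESeq2, 1 without the 3 libraries and 0 to 3 leaving out single libraries for iWAT minus eWAT, 35 and 0 to 1 for liver minus iWAT, and 39, 4 with log2(FPKM + 1), 50 without the 3 libraries and 0 to 9 for liver minus eWAT. The cause was not tested.

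Signs turned for Cyp26b1 in liver against iWAT and eWAT with library totals (-0.33 and -0.10) and log2(FPKM + 1) (-0.39 and -0.20), and for Dhrs3 likewise (-0.59 and -0.77, -0.43 and -0.67). Among values of iWAT against eWAT that were not called, Aldh1a3 turned to 0.34 in WT libraries alone, Rarb to -0.07 with log2(FPKM + 1) and -0.33 in KO libraries alone, Lrat to 0.62 with the replicate block, 1.35 without the 3 libraries and 0.33 in KO libraries alone, and leaving out single libraries moved Lrat from -1.01 to 0.62 and Stra6 from -0.15 to 1.36. Library totals were an alternative chosen after the data were seen.

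The replicate numbers did not pair the samples: the correlation of same-numbered WT and KO libraries ran from -0.74 to 0.17 over 9 pairs, 2 of them best with their own number, and that of 2 tissues from -0.29 to 0.22 over 18 pairs, 3 of them best. Depth limits Cyp26a1, Lrat and Stra6 in fat and Aldh1a2, Aldh1a3 and Stra6 in liver.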
